A study of Mus musculus with 4 samples.

Results

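The genes of cholesterol and fatty acid synthesis were followed as a set of 32, chosen by symbol from the 22266 genes of the table. They are 5 regulators of the pathway, 19 genes of the sterol branch and 8 of the fatty acid branch. All 32 were found, and all 32 passed the filter on low values (mean TPM of 1 or more). Mammalian cells make cholesterol and fatty acids from acetyl-CoA in separate enzyme chains that share their transcriptional control. The genes of both chains are targets of the sterol regulatory element binding proteins (SREBPs), membrane-bound transcription factors made from Srebf1 and Srebf2. SCAP carries them from the endoplasmic reticulum to the Golgi, where they are cut and set free, and the INSIG proteins hold SCAP back when sterols are plentiful. Embryonic stem cells divide fast and need both products for new membrane.

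Levels are in TPM, where the reads of a gene are scaled by its length and by the total of its library. They come from poly(A) RNA of female mouse embryonic stem cells, line PGK12.1, grown on gelatin in serum with leukemia inhibitory factor. All 4 libraries come from a derivative of that line labelled CBX2fl/fl-HaloTag, in which Cbx2, a chromodomain subunit of Polycomb repressive complex 1, is floxed and carries a HaloTag. The EtOH group (n = 2, day 0) was given ethanol and is labelled Wildtype. The OHT group (n = 2, day 2) was given 1.0 µM 4-OHT (4-hydroxytamoxifen) for 48 hours and is labelled Knockout. No library here combines the drug with intact Cbx2, so drug, time in culture and deletion cannot be told apart. The sources used here name neither the recombinase nor the number of clones. Nor do they say whether replicates were grown apart, and the spread behind each p-value may be technical. In bulk RNA, fewer cells of a type and less RNA per cell cannot be told apart.

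Cbx2 itself read 2.29 and 2.71 TPM under EtOH against 0.749 and 1.14 TPM under OHT, the direction the labels give, without passing the test (limma adjusted p = 0.265). Leaving out OHT replicate 1 or replicate 2 gave Cbx2 a log2 fold change of -0.708 or -0.998, beside -0.853 with all libraries. Which exons are deleted is not stated. All 10 embryonic stem cell markers were expressed, with a summed level of 9776 to 9854 TPM with EtOH and 11468 to 12726 TPM with OHT. Most of that difference was Dppa5a, at 4673 ± 85.6 TPM with EtOH and 6356 ± 1037 TPM with OHT (SD, n = 2 each). It was not alone, as 7 of the 10 had groups that did not overlap with OHT higher, against 23.1% of all genes. These were Dppa5a, Pou5f1, Nanog, Zfp42, Esrrb, Klf4 and Tdgf1. Pou5f1 averaged 1859 TPM with EtOH and 2167 TPM with OHT. Only Utf1 had OHT lower without overlap, against 19.4% of all genes, at 385 and 326 TPM on average. Sox2 averaged 461 and 453 TPM. None of the 10 passed the test. Of 10 fibroblast markers, Postn was listed at 0 throughout and only Thy1 and Fn1 reached the filter. The fibroblast sum was 70.8 and 75.4 TPM with EtOH, 63.9 in OHT replicate 1 and 123 in OHT replicate 2. It was nearly all Fn1. The 9 primitive endoderm markers summed to 6.26 to 7.62 TPM, with Ttr listed at 0. The 6 neuroectoderm markers, with Neurog2 listed at 0, summed to 221 and 219 TPM under EtOH against 183 and 194 TPM under OHT. Most of that difference was Tubb3, which averaged 194 TPM with EtOH and 162 TPM with OHT. Pax6 averaged 7.45 and 3.39 TPM and Sox1 2.86 and 6.02 TPM in the same order of groups. Of the 5 neuroectoderm markers tested, none passed. Both OHT libraries lay above EtOH for 1, Sox1, and below for 2, Tubb3 and Pax6 (23.1% and 19.4% of all genes). The part of these marker levels in the results below was not tested. The OHT libraries differed more from each other than the EtOH libraries did (SD over genes of the log2 difference 0.35 against 0.18).

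Promoter stretches were at hand for 25 of the 32 genes, as RefSeq windows on GRCm38.p6, and the 250 bases before the annotated start were searched on both strands. NF-Y, a partner of the SREBPs at many of these promoters, binds the motif CCAAT. Hmgcs1 is the only member of the 25 whose window held TCACNCCAC, a form of the sterol regulatory element. It was present for 1.22% of all genes with a window, and in 1.05% of all 32851 windows. The CCAAT motif was present for 20 of the 25 members, against 37.5% of all genes with a window. The 5 members without it were Acaca, Acat2, Elovl6, Fads2 and Scap. The E-box CACGTG was present for 5 of 25, namely Dhcr7, Hsd17b7, Insig1, Sc5d and Scap, against 6.86% of genes. GGGCGG, the last motif searched, was present for 21 of 25, against 35.4% of genes. The genes behind these shares were not filtered on expression, whereas all members were expressed. These matches are descriptions of the letters and not of bound sites. The stretches below are those of Hmgcs1, the only member with TCACNCCAC, of Mvk, whose OHT libraries both lay above EtOH, and of Fasn, which the OHT libraries bracketed. They end at the RefSeq start, which can differ from the GENCODE positions given further on. Each runs 5′ to 3′ toward the start, and capitals mark TCACNCCAC and CCAAT on either strand.
Hmgcs1 (chr13:119690101-119690350, plus strand): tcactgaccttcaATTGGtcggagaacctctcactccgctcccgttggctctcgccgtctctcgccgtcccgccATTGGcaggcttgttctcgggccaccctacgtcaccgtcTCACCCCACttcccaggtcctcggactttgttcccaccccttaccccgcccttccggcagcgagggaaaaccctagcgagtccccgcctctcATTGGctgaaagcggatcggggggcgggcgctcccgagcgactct
Mvk (chr5:114444019-114444268, plus strand): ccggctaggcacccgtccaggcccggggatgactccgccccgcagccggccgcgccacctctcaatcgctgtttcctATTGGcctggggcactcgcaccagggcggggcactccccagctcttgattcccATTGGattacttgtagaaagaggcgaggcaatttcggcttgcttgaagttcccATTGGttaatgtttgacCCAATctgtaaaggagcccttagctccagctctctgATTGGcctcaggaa
Fasn (chr11:120824548-120824797, minus strand): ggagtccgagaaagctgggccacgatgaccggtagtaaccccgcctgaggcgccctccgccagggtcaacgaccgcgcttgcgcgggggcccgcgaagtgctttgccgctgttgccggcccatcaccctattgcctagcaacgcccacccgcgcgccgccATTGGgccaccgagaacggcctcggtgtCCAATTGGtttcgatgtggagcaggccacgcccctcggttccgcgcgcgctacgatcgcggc
All 3 hold CCAAT, with 3 matches in Hmgcs1, 5 in Mvk and 3 in Fasn, of which 2 overlap.

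No gene of either chain passed the test, and the largest fold change was that of the desaturase gene Scd2, read higher with OHT. The criterion was limma's adjusted p under 0.05 over 12029 genes, which 0.0416% of all genes met. Of these, 1 gene (0.00831%) was higher and 4 (0.0333%) were lower, or 0 and 3 after median of ratios scaling. At an unadjusted p under 0.05 stood 2 members, Scd2 and Msmo1, both higher, where 6.02% of all genes were higher and 4.46% lower. The median log2 fold change on the log2(TPM + 1) scale, which understates changes of low genes, was 0.11 over the members and 0.02 over all genes tested. It was 0.11 for the SREBP regulators, 0.10 for the sterol branch and 0.18 for the fatty acid branch. With 2 libraries a group, an exact two-sided permutation test cannot give a p below 0.333, so none was run.

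The OHT libraries did not move together. Both lay above both EtOH libraries for 10 of the 32 genes, where 23.1% of all genes did so, and both lay below for 1, Acss2, where 19.4% did, so that 42.4% of all genes had groups that did not overlap. For 15 members OHT replicate 1 lay below both EtOH libraries while OHT replicate 2 lay above both, a pattern that 30.0% of all genes showed. The 6 others had an OHT library within the EtOH range. OHT replicate 2 read higher than OHT replicate 1 for 28 of 32, against 76.1% of all genes, and EtOH replicate 2 higher than EtOH replicate 1 for 22 of 32, against 62.6%. Against the EtOH mean, the members' median stood at -0.05 for OHT replicate 1 and 0.27 for OHT replicate 2, beside -0.09 and 0.14 over all genes. The call therefore turned on which OHT library was kept. Without OHT replicate 1, 14 members passed, all higher: Srebf2, Insig2, Hmgcs1, Msmo1, Nsdhl, Sc5d, Dhcr7, Acaca, Fasn, Scd1, Scd2, Elovl6, Fads1 and Fads2. There 18.5% of all genes passed as higher and 6.11% as lower. Without OHT replicate 2, 4 passed, Msmo1 and Scd2 as higher and Sqle and Fasn as lower, while 6.05% of all genes passed as higher and 14.5% as lower. These fits assume that a lone OHT library would vary as the EtOH pair did, and that pair lay closer together. Both fits also use the same EtOH pair, so they are not independent, and the share of all genes called in both was not counted. With OHT replicate 1 or replicate 2 left out, the log2 fold change was 0.26 or 0.32 for Msmo1 and 0.85 or 0.34 for Scd2.

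**Figure D1:**
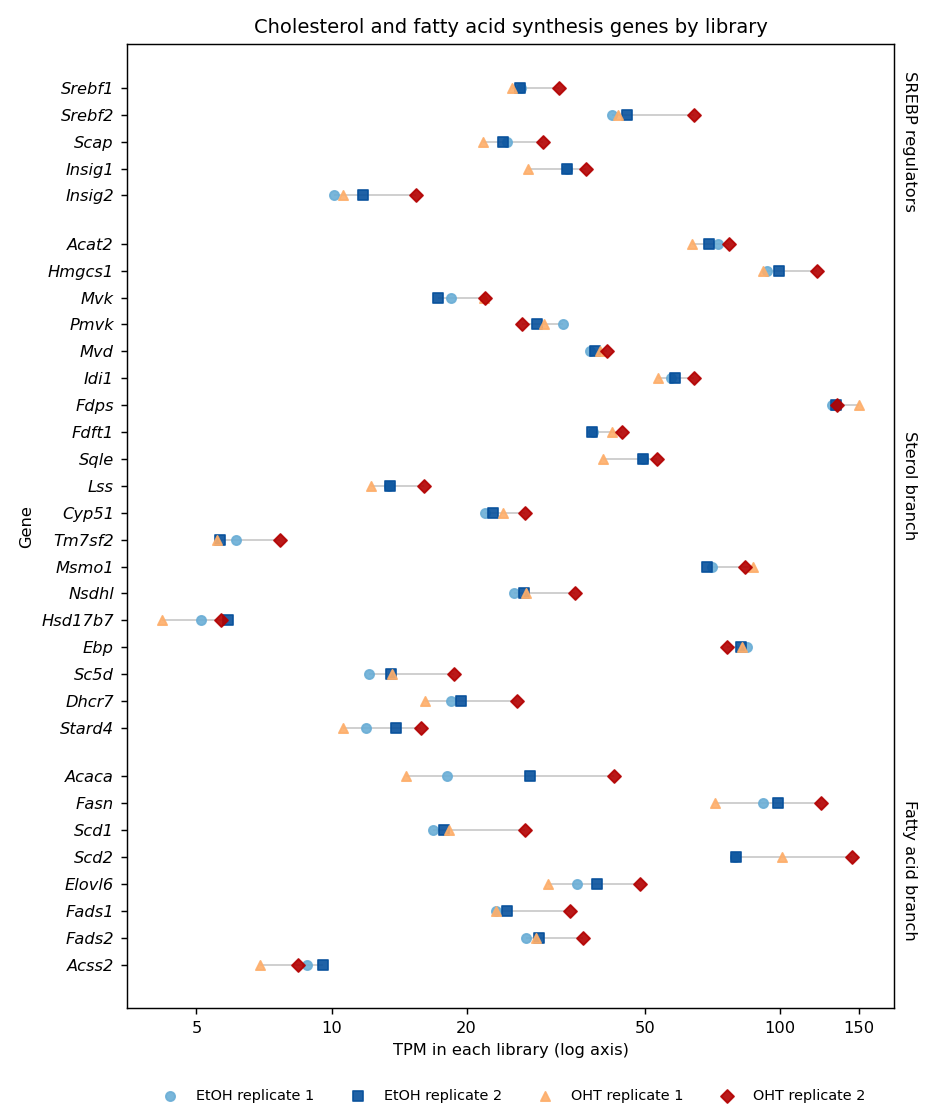
TPM of the 32 genes in each of the 4 libraries, on a log axis, grouped by branch, with each grey line spanning the 4 values of a gene. OHT replicate 2 lies to the right of OHT replicate 1 for 28 of the 32 genes, and the widest lines are those of Acaca and Scd2 in the fatty acid branch.

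Of the SREBP regulators, none stood apart from EtOH in both OHT libraries. Srebf2, whose product SREBP2 drives mainly the sterol genes, read 42.1 and 45.7 TPM under EtOH against 43.5 and 64.2 TPM under OHT. OHT replicate 1 lay within the EtOH range and replicate 2 above it, and the log2 fold change was 0.26 (SE 0.20; adjusted p = 0.703 by limma). Srebf1, which encodes the SREBP1 forms that act mainly on fatty acid genes, read 26.5 and 26.4 TPM under EtOH against 25.3 and 32.1 TPM under OHT. The OHT libraries thus lay on either side of a tight EtOH pair.

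Scap, the escort of the SREBPs, read 24.6 and 24.2 TPM under EtOH against 21.8 and 29.6 TPM under OHT. Insig1, a sterol-sensing anchor and itself a sensitive SREBP target, read 33.4 and 33.5 TPM under EtOH against 27.5 and 36.9 TPM under OHT. Both genes were bracketed in the same way as Srebf1, and the log2 fold change of Insig1 was -0.07 (95% interval -0.49 to 0.35). Insig2, the second anchor, had the lowest level of the 5, at 10.1 and 11.8 TPM under EtOH against 10.6 and 15.4 TPM under OHT. The 5 genes together read 137 and 141 TPM under EtOH, 129 TPM in OHT replicate 1 and 178 TPM in OHT replicate 2.

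In the sterol branch, Msmo1, which encodes the methylsterol monooxygenase that takes methyl groups off lanosterol-derived sterols, had the smallest p. It lies on GRCm38 chromosome 8, 64718139 to 64733792, minus strand, has 8 annotated exon blocks and overlaps no exon of another gene. Msmo1 read 70.5 and 68.7 TPM under EtOH against 87.1 and 83.3 TPM under OHT. The OHT libraries stood close together above the EtOH libraries, at 85.2 ± 2.70 against 69.6 ± 1.29 TPM (SD, n = 2 each). The log2 fold change was 0.29 (SE 0.10, limma adjusted p = 0.429; unadjusted p under 0.05), so Msmo1 did not pass over all genes.

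The early mevalonate steps were mixed. Acat2, which joins acetyl-CoA units, read 72.8 and 69.3 TPM under EtOH against 63.6 and 77.1 TPM under OHT, and Hmgcs1, the HMG-CoA synthase, 93.3 and 99.6 TPM under EtOH against 91.6 and 121 TPM under OHT. Both were bracketed by the OHT libraries. Acat2 is 97.7% identical to Acat3 over 1477 aligned bases, but Acat3 was listed at no more than 0.158 TPM, so the sum of both moved by the same -0.02 on the log2 scale. Mvk, the mevalonate kinase (chromosome 5, 114444269 to 114460591, plus strand), read 18.5 and 17.3 TPM under EtOH against 21.9 TPM in both OHT libraries. Its OHT libraries agreed to within an SD of 0.0297 TPM and stood above EtOH, and the log2 fold change was 0.28 (SE 0.14; adjusted p = 0.557 by limma). Pmvk, the next kinase, read 32.8 and 28.6 TPM under EtOH against 29.7 and 26.5 TPM under OHT, so consecutive enzymes of the chain had log2 fold changes of opposite sign, -0.12 for Pmvk. Mvd, the decarboxylase that follows, read 37.7 and 38.6 TPM under EtOH against 39.7 and 41.2 TPM under OHT, a small separation.

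At the isoprenoid steps the OHT libraries came in either order. Idi1, the isopentenyl diphosphate isomerase, read 57.1 and 58.4 TPM under EtOH against 53.5 and 64.4 TPM under OHT. Fdps, the farnesyl diphosphate synthase and the most abundant member, read 131 and 133 TPM under EtOH against 150.2 and 134 TPM under OHT. For Fdps the order of the OHT libraries was the reverse of that of most members, and replicate 2 stood only just above EtOH. Fdps and Idi1 have near-identical copies in the annotation, so their values are uncertain. Of the Fdps copies, Gm43738, which is identical over 929 bases, was listed at 0 in all 4 libraries, and Gm3571, at 98.9% identity, was not analysed here.

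The genes of squalene and lanosterol formation were mixed against EtOH, with OHT replicate 2 above OHT replicate 1 for each. Fdft1, the squalene synthase, read 38.2 and 38.0 TPM under EtOH against 42.1 and 44.4 TPM under OHT, both OHT libraries above EtOH (log2 fold change 0.18, SE 0.12). Fdft1 shares exon bases with Ctsb on the other strand and is 97.4% identical to Gm6781 over 1249 bases, and as the use of strand is not given its value is uncertain. Sqle, the squalene epoxidase and a rate-limiting enzyme of the pathway, read 49.5 TPM in both EtOH libraries and 40.2 and 53.2 TPM with OHT. Lss, the lanosterol synthase, read 13.5 TPM in both EtOH libraries and 12.3 and 16.1 TPM with OHT. Both were bracketed, and the log2 fold change of Sqle was -0.10 (95% interval -0.49 to 0.29).

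Among the enzymes that turn lanosterol into cholesterol, 4 of the 8 had both OHT libraries above EtOH, where 23.1% of all genes did: Cyp51, Msmo1, Nsdhl and Sc5d. Cyp51, the lanosterol demethylase, read 22.0 and 22.9 TPM under EtOH against 24.1 and 27.0 TPM under OHT. Nsdhl, an X-linked sterol dehydrogenase, read 25.5 and 26.9 TPM under EtOH against 27.2 and 34.9 TPM under OHT. For both, OHT replicate 1 was just above the higher EtOH library. Sc5d, the sterol desaturase (chromosome 9, 42251595 to 42264256, minus strand), had the largest fold change of the branch, from 12.1 and 13.6 TPM with EtOH to 13.7 and 18.7 TPM with OHT (log2 fold change 0.30, SE 0.20, limma adjusted p = 0.673). That value rested on OHT replicate 2, since replicate 1 exceeded the higher EtOH library only narrowly.

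The remaining sterol genes were bracketed or lower. Dhcr7, which makes cholesterol from its last precursor, read 18.5 and 19.4 TPM under EtOH against 16.2 and 25.9 TPM under OHT. Tm7sf2, a sterol reductase, read 6.12 and 5.63 TPM under EtOH against 5.55 and 7.66 TPM under OHT, and shares exon bases with Vps51 on its strand, so reads could be split between them. Ebp, an X-linked sterol isomerase, read 84.3 and 82.0 TPM under EtOH against 82.4 and 76.1 TPM under OHT, the second of the 2 OHT libraries below EtOH. Hsd17b7, a sterol ketone reductase and the least abundant member, read 5.11 and 5.89 TPM under EtOH against 4.18 and 5.68 TPM under OHT. Stard4, a cholesterol carrier, read 12.0 and 13.9 TPM under EtOH against 10.6 and 15.8 TPM under OHT. The 19 sterol genes together read 800.0 and 805 TPM under EtOH, 816 TPM in OHT replicate 1 and 894 TPM in OHT replicate 2. Both OHT sums exceeded both EtOH sums, by far less in replicate 1 than in replicate 2. The replicate 1 excess rested on Fdps, whose value is uncertain, and Msmo1. They read 150.2 and 87.1 TPM there, against EtOH means of 132 and 69.6 TPM. The median log2 difference of the branch from the EtOH mean was below 0 for replicate 1, at -0.04, against 0.24 for replicate 2.

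The fatty acid branch held both the largest fold change of the set and the widest disagreement between OHT libraries. Scd2, a stearoyl-CoA desaturase that makes monounsaturated fatty acids (chromosome 19, 44293674 to 44306864, plus strand), read 79.5 and 79.8 TPM under EtOH against 101 and 144 TPM under OHT. Both OHT libraries lay well above a tight EtOH pair, at 123 ± 30.5 against 79.6 ± 0.247 TPM (SD, n = 2 each), a ratio of means of 1.54. The log2 fold change was 0.59 (SE 0.18, 95% interval 0.16 to 1.02), and limma's adjusted p = 0.348 did not pass. Scd1, its neighbour on chromosome 19 (44394455 to 44407879, minus strand), read 16.8 and 17.8 TPM under EtOH against 18.3 and 27.0 TPM under OHT, with replicate 1 only just above EtOH. The pair is 95.5% identical over 623 aligned bases of an annotated transcript, and the sum of both genes moved by 0.56 on the log2 scale.

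Acaca, the acetyl-CoA carboxylase that commits carbon to fatty acids (chromosome 11, 84129672 to 84401651, plus strand), read 18.1 and 27.7 TPM under EtOH against 14.7 and 42.6 TPM under OHT. Its OHT libraries differed 2.90-fold and its EtOH libraries 1.53-fold, and the fold change of 0.16 had an SE of 0.48. Acaca is also 99.2% identical to Gm5182 over 6118 bases, which was not analysed here. Fasn, the fatty acid synthase (chromosome 11, 120805846 to 120824547, minus strand), read 91.4 and 99.0 TPM under EtOH against 71.6 and 123 TPM under OHT. Its log2 fold change was -0.02 (95% interval -0.62 to 0.58), while the single OHT libraries stood at -0.41 and 0.37 against the EtOH mean. Without OHT replicate 1, Fasn passed as higher (limma adjusted p = 0.0216), and without replicate 2 it passed as lower (adjusted p = 0.0158).

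Elovl6, an elongase of saturated fatty acids, read 35.2 and 39.2 TPM under EtOH against 30.4 and 48.6 TPM under OHT. The desaturases of polyunsaturated fatty acids, Fads1 and Fads2, read 23.3 and 24.6 TPM and 27.2 and 29.0 TPM with EtOH, and 23.2 and 33.9 TPM and 28.5 and 36.3 TPM with OHT. In all 3 genes only OHT replicate 2 stood above both EtOH libraries. Acss2, which makes acetyl-CoA from acetate, was the only member below EtOH in both OHT libraries, at 8.83 and 9.55 TPM under EtOH against 6.92 and 8.40 TPM under OHT (log2 fold change -0.24, SE 0.18, limma adjusted p = 0.719). It shares exon bases with Gss, Ggt7 and Acss2os on the other strand, so its value is uncertain. Srebf1, Scap, Hmgcs1, Idi1, Lss, Cyp51 and Elovl6 likewise share exon bases with a gene on the other strand, and Elovl6 is 97.4% identical to Gm11295 over 805 bases. The 8 genes together read 300.3 and 327 TPM under EtOH, 295 TPM in OHT replicate 1 and 464 TPM in OHT replicate 2, so the branch sum of replicate 1 lay below EtOH and that of replicate 2 far above.

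**Figure D2:**
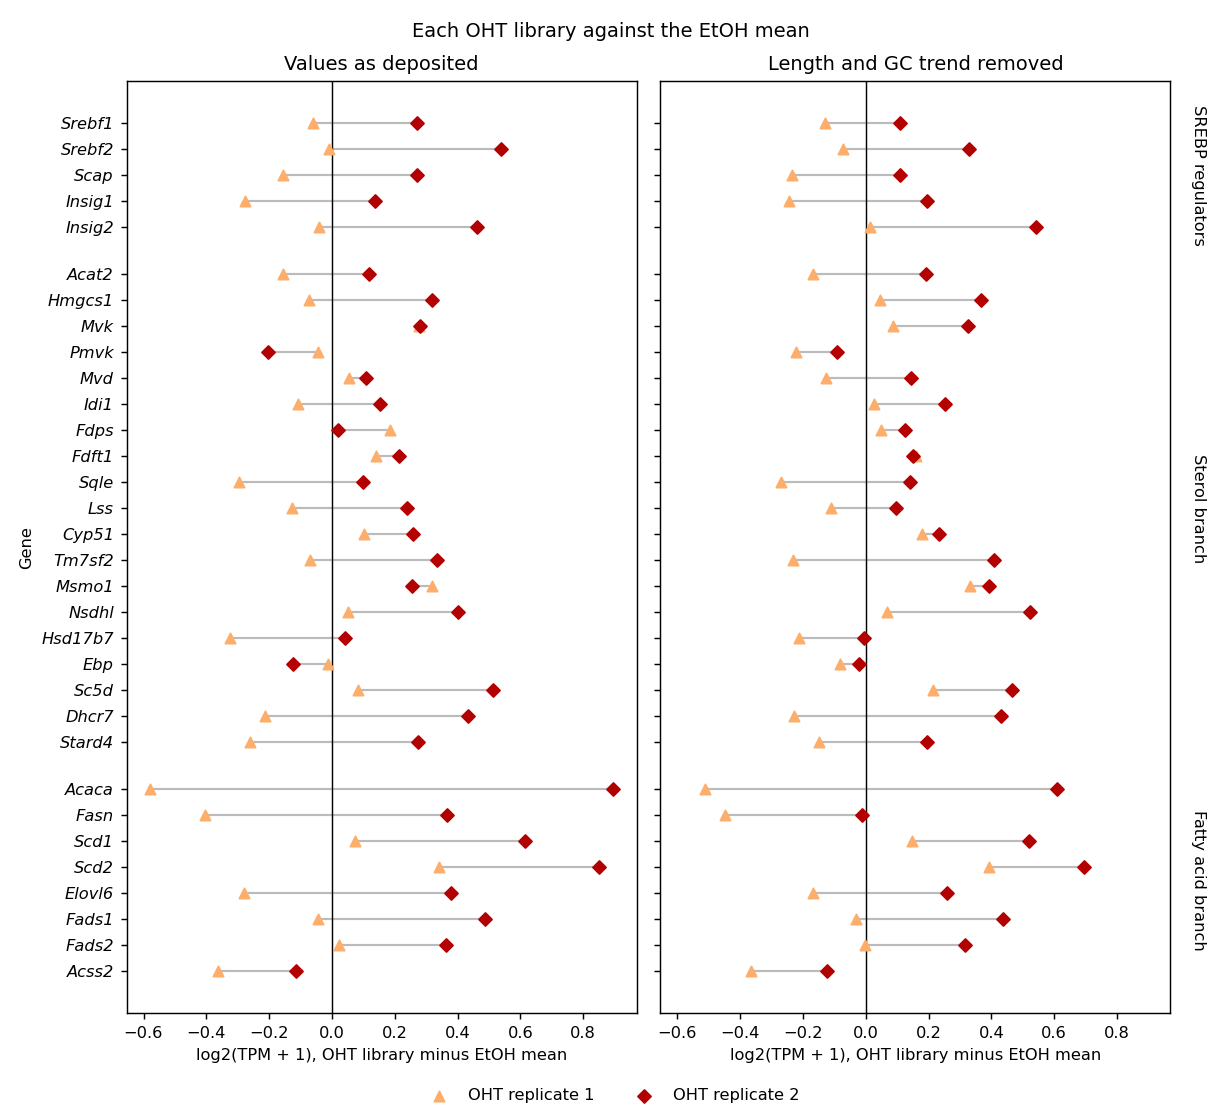
Difference on the log2(TPM + 1) scale of each OHT library from the EtOH mean for the 32 genes, as deposited (left) and with the trend over transcript length and GC content taken out of each library (right), with 0 as the EtOH mean. As deposited, 11 genes have both OHT libraries above 0, 3 have both below and 18 are split. The right panel has 12, 5 and 15. These shares were not counted over all genes, whose medians as deposited were -0.09 for OHT replicate 1 and 0.14 for OHT replicate 2.

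The gap between the OHT libraries went with transcript length among these genes. For the 10 members with the shortest transcripts (1194 to 2697 bases), among them Pmvk, Fdps, Mvk, Ebp, Mvd and Msmo1, the median log2 difference of OHT replicate 2 minus replicate 1 was 0.03. For the 10 with the longest (4612 to 10050 bases), among them Fasn, Acaca, Elovl6 and Scd2, it was 0.54. Over the 32 genes, which share 4 libraries and are not independent replicates, this difference and log2 length had Pearson r = 0.77 and Spearman rho = 0.72. Over 12016 genes tested with a length, r was 0.56. The group fold change had r = 0.17 with length over the members.

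**Figure D3:**
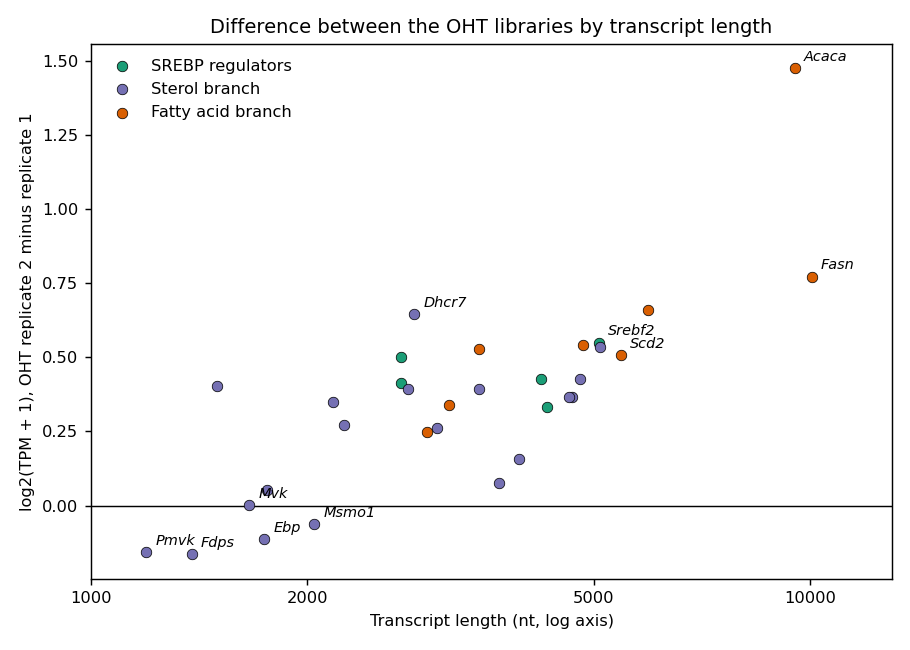
Difference on the log2(TPM + 1) scale between OHT replicate 2 and replicate 1 against transcript length (log axis) for the 32 genes, coloured by branch. Pmvk, Fdps, Ebp and Msmo1 lie below 0 at short lengths, and Fasn at 0.77 and Acaca at 1.48 are the longest transcripts.

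Taking the trend over length and GC content out of each library left a member median of 0.09, with -0.10 for OHT replicate 1 and 0.24 for OHT replicate 2. The step keeps the overall offset of each library. The medians over all genes were -0.09 and 0.14 for OHT replicates 1 and 2 as deposited, and again -0.09 and 0.14 after it. The members' median difference of OHT replicate 2 minus replicate 1 went from 0.38 to 0.32, which still includes that offset. It was then 0.25 for the 10 shortest and 0.36 for the 10 longest, and its correlation with log2 length over the 32 genes was r = 0.35 (rho = 0.19). No member passed in that fit either, where 0.333% of all genes passed as higher and 0.249% as lower. Scd2 kept the smallest p (log2 fold change 0.54, SE 0.13, limma adjusted p = 0.145), with both OHT libraries above the EtOH mean by 0.39 and 0.69. Msmo1 followed (0.36, SE 0.12, limma adjusted p = 0.254), by 0.33 and 0.39. The OHT libraries of Mvk, which agreed closely as deposited, then stood at 0.09 and 0.32, and those of Mvd at -0.13 and 0.14. Fasn stood at -0.23, with -0.45 and -0.01 in the OHT libraries, and the SREBP regulators' median was -0.01 in place of 0.11.

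Related genes outside the set were read from the same fit. Of 10 other genes of sterol synthesis and uptake, none passed, and the median was 0.15. Both OHT libraries lay above EtOH for 4 and below for 1 (23.1% and 19.4% of all genes). The lipoprotein receptor genes Vldlr and Lrp8 had unadjusted p-values under 0.05, both higher, as 6.02% of all genes had. Vldlr read 0.776 and 0.590 TPM under EtOH against 1.51 and 2.19 TPM under OHT (log2 fold change 0.75, limma adjusted p = 0.296), and Lrp8 read 1.64 and 1.57 TPM under EtOH against 3.02 and 3.72 TPM under OHT (0.74, adjusted p = 0.280). Both are low, and for both the OHT libraries stood above EtOH. Npc2, a lysosomal cholesterol carrier, and Lipa, the lysosomal acid lipase, also had both OHT libraries above EtOH.

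Of 11 genes of SREBP processing and sterol sensing, none passed, none had groups that did not overlap (42.4% of all genes had), and the median was 0.02. Among those with the smallest p were the coat protein genes Sec23a (0.19) and Sec24d (0.22) and the endoplasmic reticulum protein gene Erlin1 (-0.15). All 11 read higher in OHT replicate 2 than in OHT replicate 1, where 76.1% of all genes did. In the EtOH pair 10 of the 11 read higher in replicate 2, where 62.6% of all genes did. Of 22 other fatty acid genes tested, of 23 listed, none passed, both OHT libraries lay above EtOH for 9 and below for 2 (23.1% and 19.4% of all genes), and the median was 0.17. Mid1ip1, which encodes an activator of acetyl-CoA carboxylase, read 32.3 and 30.9 TPM under EtOH against 44.3 and 51.6 TPM under OHT (log2 fold change 0.58, SE 0.13, limma adjusted p = 0.267). Me1, the malic enzyme that supplies NADPH, and the elongase gene Elovl7 had both OHT libraries above EtOH, and Acsl5, an acyl-CoA synthetase, had both below (-0.45, SE 0.20). Acly, which makes cytosolic acetyl-CoA from citrate, read 137 and 147 TPM under EtOH against 136 and 183 TPM under OHT, bracketed like Fasn.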

How the data were processed

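Poly(A) RNA libraries of 4 samples were analysed: EtOH and OHT, 2 each, all labelled batch 2. Library kits were NEBNext, per the labels' protocols, and the use of strand is not given. The authors deposited TPM, which sums to 1000000 in each library. TPM carries no read number, and depth is therefore unknown here. Their steps included Trim Galore and Salmon with GRCm38 (mm10), per the submitters' processing notes; versions, order and annotation release were not given. Another 2 columns of values match no sample and were not used.

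Values were taken as log2(TPM + 1). The 12029 genes whose mean was 1 TPM or more were fitted with limma 3.58.1 in R 4.3.3 (mean-variance trend, two-sided, 2 residual and 4.01 prior degrees of freedom), adjusted by Benjamini-Hochberg over all of them, with a threshold of 0.05. The fit was tested on simulated data. Members, lists and alternatives were chosen with earlier results of these data known. Named are all members, Cbx2, Acly and up to 4 genes per further list with the smallest p; some genes that this rule names are not reported here. Positions, lengths and GC content (longest basic transcript) come from GENCODE mouse release 21 on GRCm38, matched without version for 22213 genes. Copies were sought with blastn 2.17.0 (95% identity over 50% of the shorter transcript). The length and GC trend was removed per library with natural splines (4 degrees of freedom each).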

Additional observations from a re-analysis of the deposited data

How the results depend on the processing

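Depth is unknown and each group has 2 libraries, so only large, even changes could pass. The count of all genes past the threshold was 5. It was 0 without a filter on low values (limma, with 1838 genes at an unadjusted p under 0.05), 3 with median of ratios scaling, with quantile normalization and without limma's trend, 70 with the length and GC trend removed, and 34 to 2957 with a library left out. The cause was not tested. Of the 32 genes described, 0 passed limma's test, with 2 at an unadjusted p under 0.05, and 0 to 14 passed with a library left out. The branch medians ranged, with a library left out, from -0.06 to 0.27 for the SREBP regulators, from -0.04 to 0.24 for the sterol branch and from -0.16 to 0.43 for the fatty acid branch.

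The replicate numbers are in the titles, but nothing says that a number marks a shared culture or day. The differences of replicate 2 minus 1 in the EtOH and OHT pairs had r = 0.29 over genes, and both went with transcript length. With a replicate block 474 genes passed (261 higher, 213 lower), among them 1 member, Scd2 (limma adjusted p = 0.00107), and Cbx2, Vldlr, Lrp8, Apoe and Mid1ip1 of the other named genes.

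Of 621 values of the 57 named genes under the alternatives that keep all libraries, 605 kept their sign and their side of the threshold, 6 newly passed, all with the replicate block, and 10 had the opposite sign, all of them small. With the length and GC trend removed these were Srebf1 (-0.011), Scap (-0.062), Acat2 (0.012) and Lss (-0.0061). With quantile normalization they were Acat2 (0.0093), Lss (-0.0052), Stard4 (-0.050) and Fasn (0.027), and with median of ratios scaling Idi1 (-0.0022) and Stard4 (-0.019). The sign of 18 members turned with a library left out, and the share of all genes that did so was not counted. The median log2 fold change over all genes also changed sign, at 0.14 without OHT replicate 1 and -0.09 without OHT replicate 2. Among the regulators the log2 fold change ran from -0.061 to 0.27 for Srebf1, -0.010 to 0.54 for Srebf2, -0.16 to 0.27 for Scap, -0.28 to 0.14 for Insig1 and -0.040 to 0.46 for Insig2. In the sterol branch it ran from -0.16 to 0.12 for Acat2, -0.073 to 0.32 for Hmgcs1, -0.11 to 0.15 for Idi1, -0.29 to 0.10 for Sqle and -0.13 to 0.24 for Lss. It also ran from -0.070 to 0.33 for Tm7sf2, -0.33 to 0.041 for Hsd17b7, -0.21 to 0.43 for Dhcr7 and -0.26 to 0.27 for Stard4. In the fatty acid branch it ran from -0.58 to 0.90 for Acaca, -0.41 to 0.37 for Fasn, -0.28 to 0.38 for Elovl6 and -0.043 to 0.49 for Fads1. Of the other named genes the same held for Acly (-0.056 to 0.36), Sec23a (-0.079 to 0.46), Sec24d (-0.066 to 0.50) and Nr1h2 (-0.38 to 0.029).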

Other observations

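Lists next to the 2 branches were read in the same fit. Of 6 genes of cholesterol efflux, storage and LXR signalling tested, of 8 listed, none passed and the median log2 fold change was 0.30. Both OHT libraries lay above EtOH for 2 of the 6 and below for 0 (23.1% and 19.4% of all genes). Apoe, the lipoprotein gene that LXR can activate, read 314 and 289 TPM under EtOH against 427 and 388 TPM under OHT, both OHT libraries above EtOH (log2 fold change 0.43, SE 0.10, limma adjusted p = 0.267). Soat1, which esterifies cholesterol for storage, stood above EtOH in both OHT libraries too (0.34, SE 0.20). Abca1, a cholesterol exporter, stood at 0.30 (SE 0.24), and Nr1h2, which encodes an LXR, at -0.17 (SE 0.16), each with OHT replicate 2 above replicate 1.

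Of 9 genes of the isoprenoid side branch none passed, with both OHT libraries above EtOH for 1 and below for 3 (23.1% and 19.4% of all genes). The groups did not overlap, with OHT lower, for Pdss1, which builds the tail of ubiquinone (29.0 and 28.5 TPM under EtOH against 22.5 and 22.9 TPM under OHT; log2 fold change -0.33, limma adjusted p = 0.465), and for the farnesyltransferase subunit genes Fnta (-0.19, SE 0.10) and Fntb (-0.19, SE 0.13). Coq2, another ubiquinone gene, stood above EtOH in both OHT libraries (0.20, SE 0.16). Of 10 fatty acid oxidation genes none passed, with both OHT libraries above EtOH for 2 and below for 4 (23.1% and 19.4% of all genes). Acadl, an acyl-CoA dehydrogenase, read 15.3 and 16.5 TPM under EtOH against 21.2 and 20.3 TPM under OHT (log2 fold change 0.36, SE 0.15, limma adjusted p = 0.472), and Cpt1a, which admits fatty acids to mitochondria, stood at 0.39 (SE 0.21). Hadhb (-0.25, SE 0.11) and the carnitine carrier gene Slc25a20 (-0.22, SE 0.12) were among the 4 below.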
